A study of Oryza sativa with 12 samples.

Results

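Shoots of the rice genotype K83 were set against shoots of the genotype Jijing88, both kept in hydroponic medium to which no alkali salts had been added. The 6 arrays of this comparison, of 12 in the series, were taken by their titles and genotype labels, with 3 biological replicates of each genotype. Seedlings were 7 days old when they were moved to fresh medium, and shoots were collected 24 h later. The greenhouse was lit for 16 h a day at 27 °C and kept dark for 8 h at 23 °C. Each array held biotin-labelled RNA from a pool of 10 shoots, so plants within a pool could not be told apart. The other 6 arrays held shoots of the same genotypes after the same interval in medium with alkali salts at 50 mM. They are used here to ask whether a genotype difference seen in control medium was also present in separate pools. The labels name the genotypes and give neither their pedigree nor how they differ. The hour of harvest is not given in the sources used here.

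Grasses acquire iron largely by releasing mugineic acids, which are built from nicotianamine and return to the plant as ferric chelates. Rice also takes up ferrous iron through transporters of the ZIP and Nramp families. Dividing cells in a seedling shoot lie mainly in the meristem and at the bases of young leaves, where the MCM helicase is loaded at replication origins before DNA is copied. Genes of both systems were among those that differed between the genotypes.

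Signals were log2 values of probe sets, groups of short array oligonucleotides that report 1 transcript. The test covered 57258 probe sets, of which 22436 were annotated to 1 of 17905 genes. For a gene with several probe sets, the brightest on average over the 12 arrays was used. A probe set was called where limma's moderated test gave a Benjamini-Hochberg adjusted p under 0.05, and differences are K83 minus Jijing88 on the log2 scale, where 1 unit is 2-fold. Each value after a ± sign is the standard error of the fitted difference, with n = 3 arrays per group. Array medians lay between 5.12 and 5.18. Where a group mean fell under them the signal is described as close to background. The difference is then a lower bound, or not to be read as a size where both means lay there. A sequence difference under the probes and a lower transcript level cannot be told apart between genotypes on such an array. In whole shoots, fewer cells of a type and less RNA per cell also cannot be told apart.

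Arrays of 1 group correlated at 0.993 to 0.997 over all probe sets, and arrays of different genotypes at 0.98 to 0.989. Genes of the photosystems and Calvin cycle matched the shoot label, with a mean signal of 11.63 to 11.86 over 9 genes in the 6 control-medium arrays. Of the 9, 1 lay below the array medians in every control-medium array, and 1, CFBP1, does not encode the Calvin cycle enzyme. Among 3 root markers, WOX11 and Lsi2 lay close to background and Lsi1, a silicon channel, had means of 9.30 and 9.16 in Jijing88 and K83. None of the 3 was called between genotypes by limma, and 1 had an unadjusted p under 0.05. The 3′ minus 5′ actin signal, a measure of RNA integrity, was 2.44, 2.12 and 2.24 in the Jijing88 arrays and 2.06, 1.81 and 2.07 in the K83 arrays. A two-sided exact permutation test of those values gave p = 0.1, the smallest that 3 against 3 arrays allow. The corresponding exact p-values were 0.4 for a second actin and 0.9 for GAPDH. The part of RNA integrity in the results was not tested. Jijing88 replicate 3 stood above the other Jijing88 arrays for iron genes, and Jijing88 replicate 2 differed from replicates 1 and 3 in a small group of probe sets described at the end. Where leaving out 1 of these arrays moved the fold of a called gene described here by over 1.5 times, the value without it is given.

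In control medium, 6658 of 57258 probe sets (11.6%) were called, 3541 higher in K83 (6.18%) and 3117 lower (5.44%). A difference of at least 2-fold was called for 1269 probe sets (2.22%), 603 of them higher (1.05%) and 666 lower (1.16%) in K83. Counted by gene, 3747 of 17905 (20.9%) were called, 2031 higher (11.3%) and 1716 lower (9.58%), and 672 (3.75%) differed at least 2-fold, 321 higher (1.79%) and 351 lower (1.96%). The median difference over all genes was 0.04.

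The alkali arrays came from other pools of shoots. The genotype difference was called for 14.3% of all probe sets and 24.7% of all genes there, and at 2-fold or more for 2.43% of probe sets and 3.81% of genes. Of the 6658 probe sets called in control medium, 6002 (90.1%) had the same sign under alkali, 3809 (57.2%) were called in the same direction and 68 were called in the opposite direction. Of the 1269 with at least a 2-fold difference, 1248 kept their sign and 1115 (87.9%) were called the same way. A change of the genotype difference between media was called for 203 of the 6658, against 0.629% of all probe sets. That count was 66 to 80 without K83 control replicate 2 or 3 or any 1 K83 alkali array, 94 without Jijing88 control replicate 1, and 117 and 109 without Jijing88 alkali replicates 1 and 3. Both comparisons use 1 shared estimate of the spread. The change between media subtracts the control-medium difference that picked the 6658, so the picking itself favours a share above 0.629%.

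**Figure D1:**
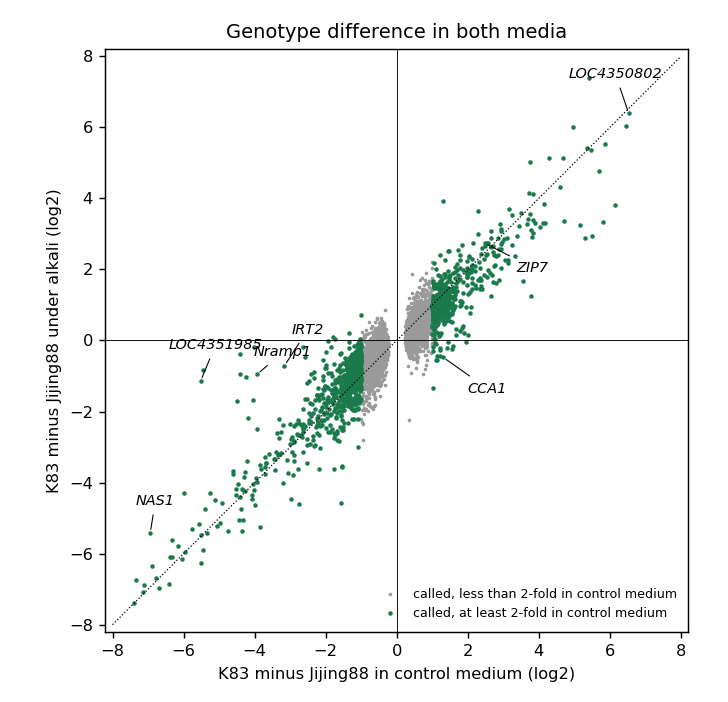
Each point is 1 of the 6658 probe sets called in control medium, with the K83 minus Jijing88 difference in control medium on the horizontal axis and the same difference under alkali on the vertical axis, both in log2 units, and a dotted line where they are equal. Of the 1269 points at least 2-fold apart in control medium (green), 1248 lie on the same side of 0 in both media, while Nramp1, IRT2 and LOC4351985 go from -3.93, -3.16 and -5.52 in control medium to -0.95, -0.71 and -1.14 under alkali.

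The nicotianamine synthase genes NAS1 and NAS2 were far lower in K83. Of 41 measured genes of iron and zinc uptake and transport, 14 were called lower and 5 higher in K83, which is 34.1% and 12.2% of the list beside 9.58% and 11.3% of all genes. The list median was -0.05, close to that of all genes. NAS1 and NAS2, neighbours on chromosome 3, had the 2 largest falls of all genes with a name. These genes are close copies of each other, and cross-hybridisation between their probe sets was not tested.

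NAS1 read 11.43, 9.96 and 13.42 in Jijing88 replicates 1, 2 and 3, the order used throughout, and 5.39, 4.45 and 4.15 in K83. NAS2 read 11.47, 10.15 and 13.22 in Jijing88 and 6.15, 5.31 and 5.42 in K83. No K83 array reached a Jijing88 array for either gene, and the spread among Jijing88 arrays, with replicate 3 highest, was wider than that among K83 arrays. The differences were -6.94 ± 0.60 for NAS1 (limma adjusted p = 5.93e-06) and -5.98 ± 0.52 for NAS2 (adjusted p = 6.32e-06), or at least 123-fold lower for NAS1, with K83 close to background, and 63.3-fold lower for NAS2. Without Jijing88 replicate 3 they were -6.03 and -5.18, and without Jijing88 replicate 2 they were -7.76 and -6.72. Under alkali both were again called lower in K83, by -5.42 and -4.31.

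Nramp1, IRT2 and IRT1 were lower too. Nramp1, an iron and manganese transporter, read 10.92, 10.25 and 12.06 in Jijing88 and 7.17, 7.16 and 7.13 in K83 (-3.93 ± 0.31, limma adjusted p = 2.5e-06). IRT2, a ferrous iron transporter, read 6.89, 6.89 and 8.15 against 4.05, 4.47 and 3.92, so K83 lay close to background (-3.16 ± 0.30, adjusted p = 1.44e-05). For both genes the K83 arrays were close together and every Jijing88 array was higher. IRT1, a close relative of IRT2 on the same chromosome, read 6.61, 6.45 and 8.34 against 5.76, 5.44 and 5.77 (-1.48 ± 0.37, adjusted p = 0.0186). Without Jijing88 replicate 3 the IRT1 difference was -0.87 (adjusted p = 0.00858). The IRT1 call was lost without K83 replicate 2 (-1.37, adjusted p = 0.0753).

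The called falls included chelate transporters and a regulator. YSL15, which brings ferric phytosiderophore into the cell, read 7.17, 6.93 and 8.83 in Jijing88 and 5.78, 6.11 and 5.73 in K83 (-1.77 ± 0.40, limma adjusted p = 0.00984), and the difference was -1.18 without Jijing88 replicate 3 (adjusted p = 0.0123). YSL13, another member of that family, read 8.37, 8.16 and 8.92 against 6.87, 7.27 and 7.12 (-1.40 ± 0.18, adjusted p = 0.00014). BHLH063, also known as IRO3, is a bHLH regulator of the iron deficiency response, and read 9.30, 8.64 and 10.24 against 7.53, 7.24 and 7.19 (-2.07 ± 0.36, adjusted p = 0.00185). In each of the 3 the genotypes were separate and Jijing88 replicate 3 was the highest array. The remaining called falls were ZIP3, YSL12, NRAMP4, ZIP2, YSL14 and YSL16, between -1.02 and -0.43.

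ZIP-family zinc transporters went both ways, with ZIP7, ZIP4 and ZIP5 called higher in K83 and ZIP3 and ZIP2 called lower. ZIP7 on chromosome 5 read 7.82, 8.11 and 7.93 in Jijing88 and 10.18, 10.66 and 10.44 in K83 (2.47 ± 0.12, limma adjusted p = 2.19e-08). ZIP4 on chromosome 8 read 7.50, 7.42 and 7.12 against 9.25, 9.94 and 9.97 (2.37 ± 0.17, adjusted p = 9.51e-07). These were the 2 largest rises among named genes, 5.55-fold and 5.18-fold, and both were also called higher in K83 under alkali (2.74 and 1.52). The other called rises were ZIP5, YSL7 and IDEF1, a regulator of iron deficiency genes, between 0.46 and 0.49.

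Without Jijing88 replicate 3, 11 iron and zinc genes were called lower and 5 higher, and over the 6 control-medium arrays left out in turn the counts ran from 11 to 14 and from 3 to 5. The 3 called higher rather than 5 came without Jijing88 replicate 1, Jijing88 replicate 2 or K83 replicate 2. The summed signal of the list, on the linear scale, was 23005 to 50364 over the Jijing88 arrays and 21011 to 23277 over the K83 arrays.

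**Figure D2:**
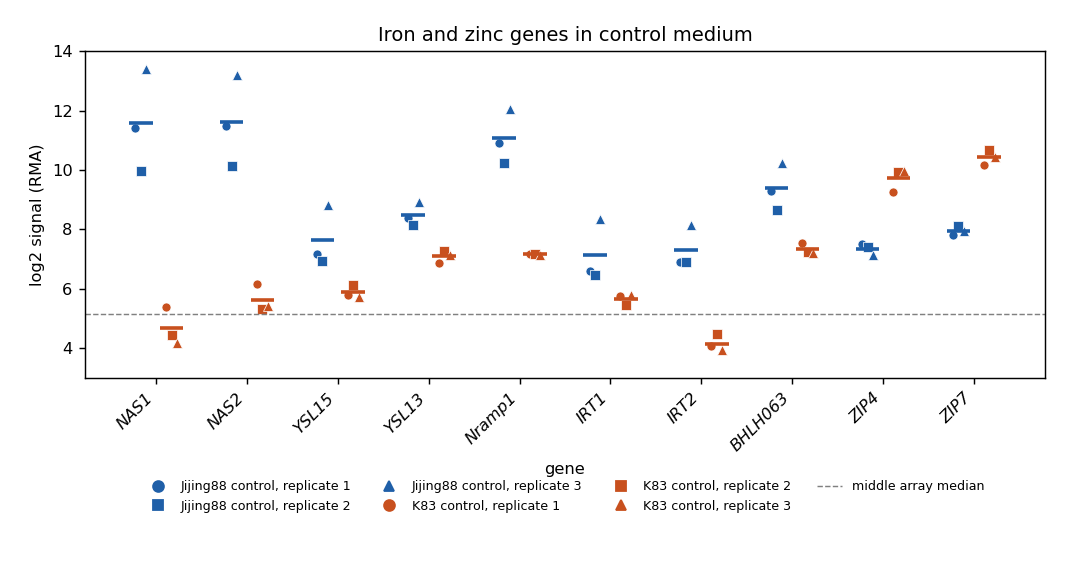
Log2 signal of 10 iron and zinc genes in each control-medium array, Jijing88 in blue and K83 in orange, with marker shape for the replicate, a bar for the group mean and a dashed line at the middle array median of 5.15. Jijing88 lies above K83 in the first 8 genes, most in replicate 3, and below K83 in ZIP4 and ZIP7.

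In some of these genes the difference was smaller under alkali. The K83 minus Jijing88 difference of Nramp1 was -3.93 in control medium and -0.95 under alkali, where the arrays read 13.19, 12.76 and 12.99 in Jijing88 and 12.16, 11.90 and 12.03 in K83. The change of 2.98 ± 0.44 was called (limma adjusted p = 0.0122). IRT2 went from -3.16 to -0.71, a change of 2.45 ± 0.43 (adjusted p = 0.0267). For BHLH063 the differences were -2.07 and -0.56, and the change between media was not called (adjusted p = 0.204). NAS1, NAS2, YSL15 and IRT1 stayed called lower in K83 under alkali, and their changes between media were not called (adjusted p = 0.333 to 0.744). The genes were picked by the control-medium difference that the change subtracts, so the picking itself favours a smaller difference under alkali. The count of called changes over probe sets depended on single arrays, as given above. No change in a single gene is given here with an array left out.

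DNA replication and cell cycle genes were higher in K83 as a group. Of 63 measured genes, 27 were called higher and 1 lower, 42.9% and 1.59% of the list beside 11.3% and 9.58% of all genes, and 55 of the 63 had a positive difference. The median difference was 0.26. Leaving out each control-medium array in turn gave 26 or 27 called higher and 1 lower, or 2 lower without Jijing88 replicate 2, and under alkali 30 were called higher and 3 lower, with a median of 0.25.

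All 6 subunits of the MCM helicase, which unwinds DNA at the fork, were called higher. MCM2 read 8.14, 8.83 and 8.83 in Jijing88 and 9.77, 9.97 and 10.02 in K83 (1.32 ± 0.16, limma adjusted p = 0.000126). OsMCM6 read 6.49, 7.05 and 6.93 against 8.13, 8.47 and 8.42 (1.52 ± 0.15, adjusted p = 1.43e-05). In both genes the lowest K83 array stood clear of the highest Jijing88 array, and replicate 1 was the lowest array within each genotype. MCM3, MCM4, MCM5 and MCM7 rose by 1.33, 1.30, 1.26 and 1.43, and all 6 subunits were called higher in K83 under alkali, by 0.78 to 1.17.

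Origin recognition genes showed the largest rises of the list. ORC1, the large subunit of the origin recognition complex, read 5.70, 6.23 and 5.79 in Jijing88 and 7.91, 7.99 and 8.21 in K83 (2.13 ± 0.15, limma adjusted p = 5.74e-07), a 4.38-fold difference. ORC3 rose by 1.57 ± 0.18 from a Jijing88 mean close to background (adjusted p = 5.56e-05). RPA70B, a subunit of the protein that coats single-stranded DNA, read 7.96, 8.69 and 8.66 against 9.83, 10.10 and 10.01 (1.54 ± 0.16, adjusted p = 2.72e-05). The genotypes did not overlap in any of these 3 genes. PCNA, the sliding clamp of the replicative polymerases, rose by 0.95 ± 0.13 (adjusted p = 0.00024), and the polymerase delta genes POLD1 and POLD2 by 0.59 and 0.66.

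Cyclins rose with them. CYCD2-2 read 6.11, 6.48 and 6.08 in Jijing88 and 7.47, 7.64 and 7.49 in K83 (1.31 ± 0.11, limma adjusted p = 3.68e-06). CYCA2-1 read 8.50, 8.88 and 8.61 against 9.76, 10.13 and 9.92 (1.27 ± 0.12, adjusted p = 1.21e-05). The B-type cyclins CYCB1-1 and CYCB2-2, which act at mitosis, rose by 1.06 and 0.88. The genotypes were separate in CYCD2-2 and CYCA2-1. KRP genes, which encode inhibitors of cyclin-dependent kinases, were split: KRP4 fell by 0.52, while KRP5 and KRP6 rose by 0.60 and 0.47.

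Markers of meristems and young leaf bases moved little. Of 15 such genes, 1 was called, OsYAB5 at 0.27 (6.67% called higher, beside 11.3% of all genes). That call was lost without any 1 of the 6 control-medium arrays or any 1 K83 alkali array (limma adjusted p = 0.0547 to 0.149). Without Jijing88 replicate 1 or K83 replicate 1, 1 gene of the list was called lower. The list median was -0.02, and 7 of the 15 lay below the array medians in every control-medium array. Meristem identity genes OSH1 (means of 4.25 and 3.61 in Jijing88 and K83) and OSH43 (4.35 and 4.29) were close to background in both genotypes. The summed linear signal of the list was 3404 to 3722 in Jijing88 and 3792 to 4101 in K83. The share of dividing tissue in the pools was not measured, and its part in the cell cycle difference was not tested.

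**Figure D3:**
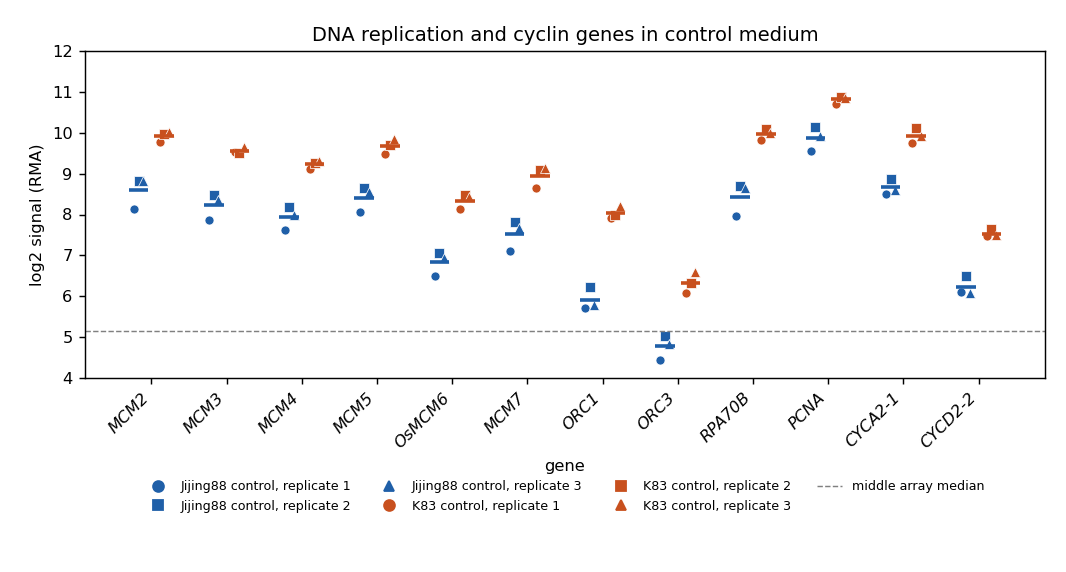
Log2 signal of 12 DNA replication and cyclin genes in each control-medium array, Jijing88 in blue and K83 in orange, with marker shape for the replicate, a bar for the group mean and a dashed line at the middle array median of 5.15. Every K83 array lies above every Jijing88 array in all 12 genes.

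Clock genes differed in both directions. Of 6 measured genes, CCA1 was called higher in K83 and 4 were called lower (83.3% called, beside 20.9% of all genes). CCA1, a morning-phased repressor, read 7.27, 7.45 and 7.96 in Jijing88 and 8.77, 8.77 and 9.03 in K83 (1.30 ± 0.19, limma adjusted p = 0.000523). PRR73, a pseudo-response regulator, read 11.77, 11.48 and 11.54 against 11.06, 11.12 and 11.05 (-0.52 ± 0.09, adjusted p = 0.00144). GI, which links the clock to flowering, read 12.85, 12.63 and 12.85 against 12.21, 12.38 and 12.26 (-0.49 ± 0.10, adjusted p = 0.00433). The groups did not overlap in any of these 3 genes. PRR37 and PRR1 fell by 0.47 and 0.31, and PRR95 was not called (-0.30). Under alkali the CCA1 difference was -0.47 and not called, and its change between media of -1.77 ± 0.27 was called (adjusted p = 0.0142), while 5 clock genes were called lower and none higher by limma, with 0 higher at an unadjusted p under 0.05. A second CCA1 probe set lay close to background and was not called (0.03).

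Regulators of floral organs and heading date included 4 called higher and 5 called lower of 44 measured genes, 9.09% and 11.4%, close to the shares of all genes. MADS58, a C-class floral homeotic gene, read 5.17, 4.59 and 4.84 in Jijing88, close to background, and 7.43, 6.93 and 6.83 in K83 (2.20 ± 0.21, limma adjusted p = 1.2e-05). MADS56, a relative of the flowering promoter MADS50, read 10.69, 10.52 and 10.91 against 8.73, 8.71 and 8.78 (-1.96 ± 0.10, adjusted p = 4.09e-08). Each was separate between the genotypes and was called in the same direction under alkali. MADS57, close to background in K83, fell by 1.51, MADS16 by 1.13 and MADS50 by 0.54. The count called higher fell to 1 without K83 replicate 3 and to 2 without Jijing88 replicate 1, Jijing88 replicate 3 or K83 replicate 2.

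Of 8 measured chlorophyll synthesis genes, 3 were called higher in K83 (37.5%, beside 11.3% of all genes) and none lower by limma, with 0 lower at an unadjusted p under 0.05. All 8 had a positive difference, and the median was 0.36. GluTR, which encodes the first committed enzyme of tetrapyrrole synthesis, read 11.42, 11.73 and 10.79 in Jijing88 and 12.48, 12.62 and 12.52 in K83 (1.23 ± 0.20, limma adjusted p = 0.00129). PORA, a light-dependent protochlorophyllide reductase, read 8.80, 9.20 and 8.89 against 9.85, 10.25 and 10.18 (1.13 ± 0.13, adjusted p = 5.3e-05). CHLH, a subunit of magnesium chelatase, read 10.44, 10.88 and 10.50 against 11.49, 11.64 and 11.60 (0.97 ± 0.17, adjusted p = 0.00175). All K83 arrays were above all Jijing88 arrays in these genes. A second CHLH probe set was not called (0.30, adjusted p = 0.0604, means of 6.76 and 7.06 in Jijing88 and K83). Under alkali, PORA was called lower in K83 (-0.56) and CHLH was not called (-0.36), and both changes between media were called, -1.69 ± 0.18 (adjusted p = 0.0014) and -1.34 ± 0.24 (adjusted p = 0.0288). GluTR was still called higher in K83 under alkali (1.66, limma adjusted p = 0.000111), and its change between media was not called (adjusted p = 0.538). Among 9 genes listed under the photosystems and Calvin cycle, 1 was called higher (11.1%, beside 11.3% of all genes), and 2 were called without Jijing88 replicate 2. The called gene was CFBP1 (0.60 ± 0.10, limma adjusted p = 0.00137). It was matched to the list by name and encodes a cytosolic fructose-bisphosphatase, which is not the Calvin cycle enzyme. Of 5 genes of chlorophyll breakdown and senescence, NOL, a chlorophyll b reductase, was called higher (0.43), 20% of this short list beside 11.3% of all genes. A second NOL probe set was not called (0.32, limma adjusted p = 0.0869, means of 8.02 and 8.34 in Jijing88 and K83).

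Potassium transport genes were lower in K83 wherever they were called. Of 32 genes of sodium, potassium and proton transport, 7 were called lower (21.9%, beside 9.58% of all genes) and none higher by limma, with a median of -0.06. At an unadjusted p under 0.05, 9 were lower and 1 higher. HAK1, a high-affinity potassium transporter, read 10.96, 10.79 and 11.35 in Jijing88 and 9.68, 9.56 and 9.67 in K83 (-1.40 ± 0.14, limma adjusted p = 1.63e-05). AKT1, an inward potassium channel, read 8.97, 8.91 and 9.20 against 7.90, 7.93 and 7.86 (-1.13 ± 0.09, adjusted p = 3.5e-06). CIPK23, the kinase that activates AKT1, read 10.97, 10.56 and 11.49 against 9.49, 9.31 and 9.45 (-1.59 ± 0.17, adjusted p = 4.47e-05). The genotypes were separate in all 3, and each was called lower in K83 under alkali. A second CIPK23 probe set was not called (-0.05, means of 9.66 and 9.62 in Jijing88 and K83). HAK16, HAK27, HAK10, TPK3 and HAK5 fell by 0.86, 0.73, 0.53, 0.51 and 0.31. The count of 7 became 4 without Jijing88 replicate 1 or K83 replicate 2, and 1 gene was called higher without Jijing88 replicate 3.

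Of 17 genes of nitrogen uptake and assimilation, 4 were called lower and 1 higher (23.5% and 5.88%, beside 9.58% and 11.3% of all genes), with a median of -0.10. AMT3-3, an ammonium transporter, read 8.15, 7.86 and 8.51 in Jijing88 and 6.51, 6.69 and 6.01 in K83 (-1.77 ± 0.23, limma adjusted p = 0.000177). AMT3-2 and AMT2-1, of the same family, fell by 1.62 and 0.96, and the cytosolic glutamine synthetase gene GLN1-2 by 0.68. The genotypes did not overlap in AMT3-3, whose difference under alkali was -0.65 and not called. Its change between media was not called either (limma adjusted p = 0.141). The rise was NIA1, a nitrate reductase, at 0.55, and its call was lost without Jijing88 replicate 1, Jijing88 replicate 2, K83 replicate 1 or K83 replicate 3, each of which left 0 called higher.

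Of 19 genes of phosphate starvation, 2 were called higher and 4 lower (10.5% and 21.1%, beside 11.3% and 9.58% of all genes), with a median of 0.00. SPX3, a phosphate-sensing repressor, read 5.09, 5.55 and 5.19 in Jijing88 and 7.58, 7.42 and 7.01 in K83 (2.06 ± 0.16, limma adjusted p = 2.38e-06). SPX1, of the same family, rose by 0.68 ± 0.13. The falls were the transporters Pht1;4 (-1.06 ± 0.18, adjusted p = 0.00126), Pht1;1, PT12 and PT8, the last 3 between -0.87 and -0.43. SPX3 was separate between the genotypes and its difference was 0.79 under alkali, a called change of -1.27 ± 0.23 between media (adjusted p = 0.0305). MGD2, a galactolipid synthase known for replacing phospholipids in phosphate-starved plants, rose by 1.79 ± 0.17 (adjusted p = 1.12e-05). The count of falls was 1 without Jijing88 replicate 3 or K83 replicate 2, and 2 without K83 replicate 1.

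Abscisic acid genes included 7 called lower and 3 called higher of 23 (30.4% and 13%, beside 9.58% and 11.3% of all genes), with a median of 0.03. Of the falls, 5 were kinases of the SnRK2 family, SAPK6, SAPK3, SAPK9, sapk2 and SAPK4, between -0.84 and -0.34. SAPK3 read 10.21, 10.09 and 10.41 in Jijing88 and 9.55, 9.31 and 9.56 in K83 (-0.76 ± 0.10, limma adjusted p = 0.000177). ABF2, a bZIP factor of the same pathway, fell by 0.64 and the receptor gene PYL11 by 0.46. ABA8OX2, which encodes an enzyme that breaks abscisic acid down, read 7.94, 7.98 and 7.71 against 8.62, 8.50 and 8.59 (0.69 ± 0.09, adjusted p = 0.000174). The phosphatase gene PP2C30 rose by 0.91 and ABIL1 by 0.45. Without K83 replicate 2 the 7 falls became 4, and without Jijing88 replicate 3 or K83 replicate 3 the 3 rises became 2.

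Genes known from maturing seed included 2 that lay close to background in K83. EM, a late embryogenesis abundant protein, read 6.12, 5.93 and 7.10 in Jijing88 and 4.05, 4.07 and 4.07 in K83 (-2.32 ± 0.37, limma adjusted p = 0.000946). OsPM19L1, an AWPM-19-like membrane protein gene, read 6.45, 6.01 and 8.32 against 4.30, 4.23 and 4.12 (-2.71 ± 0.43, adjusted p = 0.00092). Jijing88 replicate 3 was highest in both, and without it the OsPM19L1 difference was -2.01 (adjusted p = 0.000113). A second OsPM19L1 probe set was close to background in both genotypes and not called (0.01). Of 8 genes of LEA proteins and dehydrins, 1 was called each way (12.5% each, beside 11.3% and 9.58% of all genes called higher and lower). EM was lower and rab25 higher (1.05 ± 0.14, adjusted p = 0.000281), the latter with both genotypes close to background. Without K83 replicate 1, 2 were called higher. Among 11 seed markers, GBSS1 and GLB were called lower (-0.95 and -0.51), which is 18.2%, beside 9.58% of all genes. GLB was bright in both genotypes, with means of 11.0 and 10.49 in Jijing88 and K83. Of the 11, 6 lay below the array medians in every control-medium array, and the summed linear signal was 2614 to 3015 in Jijing88 and 2085 to 2138 in K83.

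Jasmonate genes had 3 called lower and none higher by limma of 34 (8.82%, no more than the 9.58% of all genes), with a median of -0.20. Only 6 of the 34 had a positive difference, and at an unadjusted p under 0.05, 7 were lower and 0 higher. AOS2, an allene oxide synthase of jasmonate synthesis, read 8.29, 7.96 and 8.50 in Jijing88 and 6.47, 6.67 and 7.31 in K83 (-1.43 ± 0.23, limma adjusted p = 0.00102). JAR1, the enzyme that conjugates jasmonate to isoleucine, fell by 0.46 ± 0.10 (adjusted p = 0.00814). JAZ7, a jasmonate-responsive repressor, fell by 0.40 ± 0.10 (adjusted p = 0.0195). Its call was lost without Jijing88 replicate 3 (-0.28, adjusted p = 0.0614), K83 replicate 1 (-0.38, adjusted p = 0.0591) or K83 replicate 3 (-0.40, adjusted p = 0.0553). Without Jijing88 replicate 3, K83 replicate 1 or K83 replicate 3, 2 genes of the list were called lower.

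Defence genes included 4 called higher and 3 called lower of 29 pathogenesis-related and phytoalexin genes (13.8% and 10.3%, close to the 11.3% and 9.58% of all genes), with a median of 0.22. CYP71Z6, a cytochrome P450 of a diterpenoid gene cluster on chromosome 2, read 4.54, 3.79 and 4.03 in Jijing88, close to background, and 6.36, 6.32 and 6.62 in K83 (2.31 ± 0.17, limma adjusted p = 8.89e-07). CYP76M7, a cytochrome P450 gene annotated here to LOC4341447 on chromosome 6, went the other way, with 8.53, 8.86 and 8.76 against 7.43, 7.61 and 7.20 (-1.30 ± 0.24, adjusted p = 0.00251). The neighbours of CYP71Z6 on chromosome 2, CYP71Z7 and DTC1, were not called (0.49 and 0.12), and DTC1 was close to background in both genotypes. CPS2, which makes the phytoalexin precursor, read 3.84, 6.23 and 4.31 against 7.23, 7.20 and 6.18, with a Jijing88 mean close to background, and was not called (2.08 ± 0.67, adjusted p = 0.0655), though it was called without Jijing88 control replicate 2 (2.79, adjusted p = 0.0129), K83 alkali replicate 1 (adjusted p = 0.0228) or K83 alkali replicate 2 (adjusted p = 0.0433).

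On chromosome 4, DTS2, a diterpene synthase of the momilactone cluster, read 5.28, 7.0 and 5.15 in Jijing88 and 8.15, 7.25 and 7.35 in K83 (1.77 ± 0.52, limma adjusted p = 0.0423). It lost its call without any 1 of the 6 control-medium arrays other than Jijing88 replicate 2, and without Jijing88 alkali replicate 2 or 3 or K83 alkali replicate 3 (adjusted p = 0.0525 to 0.163). Without Jijing88 replicate 2 its difference was 2.37 (adjusted p = 0.00587). CYP99A2, CYP99A3 and CPS4 of that cluster were not called (0.99, 0.49 and 0.40), and the groups overlapped in each. The count called higher in the whole list was 7 without Jijing88 replicate 2, 2 without Jijing88 replicate 1 and 1 without Jijing88 replicate 3 or K83 replicate 2. The called chitinase genes were chia4a and Cht11, at -1.45 and -1.22, and CH16 at 0.59. Of 4 disease resistance receptor genes, the chitin receptor CEBIP was called higher (0.71 ± 0.12, adjusted p = 0.00167) and its partner kinase CERK1 lower (-0.54 ± 0.10, adjusted p = 0.00314). That is 25% each way in this short list, beside 11.3% of all genes called higher and 9.58% called lower.

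Metal-binding and redox genes were among the larger single differences. MT1B, a metallothionein, read 10.69, 10.84 and 11.53 in Jijing88 and 7.48, 8.03 and 8.84 in K83 (-2.90 ± 0.30, limma adjusted p = 2.49e-05). MT-1-4b, of the same family, fell by 1.56 ± 0.37 (adjusted p = 0.0138), a call lost without Jijing88 replicate 3 (-1.20, adjusted p = 0.0642) or K83 replicate 2 (-1.15, adjusted p = 0.0619). MT1B was separate between the genotypes and as far apart under alkali (-2.86). The glutaredoxin gene GRXC1 read 8.30, 8.22 and 5.63 against 8.98, 9.13 and 9.55 (1.83 ± 0.52, adjusted p = 0.0354). Jijing88 replicate 3 was the low array, and the difference was 0.96 without it (adjusted p = 0.0133). The call was lost without K83 control replicate 1, 2 or 3 (adjusted p = 0.0593, 0.0868 and 0.115) or alkali replicate 3 of either genotype (adjusted p = 0.05 in Jijing88 and 0.0509 in K83).

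Of 51 antioxidant genes, 5 were called higher and 2 lower (9.80% and 3.92%, both under the 11.3% and 9.58% of all genes), with a median of 0.10. GRXS2 and the catalase gene CAT-B were lower (-0.81 and -0.31), and GRXC1, OsTrx14, APX1, OsTrx03 and APX8 higher. The peroxidase gene APX1 rose by 0.52, a call lost without K83 replicate 2 (0.46, limma adjusted p = 0.052). OsTrx03, a thioredoxin, rose by 0.45, a call lost without Jijing88 replicate 1 (0.36, adjusted p = 0.0573) or K83 replicate 3 (0.40, adjusted p = 0.0563). The count called higher was 2 without K83 replicate 2 or 3 and 3 without K83 replicate 1, and the count called lower was 1 without any 1 control-medium array other than Jijing88 replicate 2. Of 6 glutathione S-transferase genes, GSTU6 was called higher (0.55) and GST-II lower (-0.33). That is 16.7% each way in this short list, beside 11.3% and 9.58% of all genes. The GSTU6 call was lost without any 1 control-medium array other than Jijing88 replicate 3 and without K83 alkali replicate 3, with adjusted p up to 0.147, and that of GST-II without Jijing88 replicate 3 or any 1 K83 control array, with adjusted p up to 0.0804.

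Heat shock genes had 5 called lower and 1 higher of 32 (15.6% and 3.12%, beside 9.58% and 11.3% of all genes), with a median of -0.08. HSP16.9B, a small heat shock protein, read 6.83, 7.02 and 6.61 in Jijing88 and 5.37, 5.92 and 5.86 in K83 (-1.10 ± 0.26, limma adjusted p = 0.0126), and -0.93 without K83 replicate 1, where it was not called (adjusted p = 0.0537). The heat shock factor gene HSF10 fell by 0.92, and by 0.72 without K83 replicate 2, which ended the call (adjusted p = 0.0705). HSF6, HSP17.9B and HSP17.9A fell by 0.56, 0.41 and 0.36, and HS1 rose by 0.72. The falls numbered 2 without Jijing88 replicate 3 or any 1 K83 control array, and the rises 2 without Jijing88 replicate 3.

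Starch and sucrose genes had 9 called higher and 5 lower of 50 (18.0% and 10.0%, beside 11.3% and 9.58% of all genes), with a median of 0.04. SPP1, a sucrose phosphatase, read 9.49, 9.50 and 9.36 in Jijing88 and 10.07, 10.10 and 10.04 in K83 (0.62 ± 0.09, limma adjusted p = 0.00035). GBSS1, the Waxy gene for amylose synthesis, read 6.59, 6.42 and 6.51 against 5.43, 5.61 and 5.64 (-0.95 ± 0.13, adjusted p = 0.000364). Both genes were separate between the genotypes, and both were called the same way under alkali. The other GBSS1 probe sets were not called (-0.26 to 0.13), and the mean over all its probe sets was -0.22 (adjusted p = 0.168). SS1 rose by 0.74 ± 0.11 (adjusted p = 0.000672). The falls numbered 3 without Jijing88 replicate 1.

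Of 65 cell wall genes, 6 were called higher and 6 lower (9.23% each, under the 11.3% and 9.58% of all genes), with a median of -0.01. EXPB2, a beta-expansin that loosens walls, read 8.32, 8.91 and 8.88 in Jijing88 and 10.77, 10.70 and 10.69 in K83 (2.01 ± 0.13, limma adjusted p = 3.7e-07). CSLA9, of the cellulose synthase-like family, rose by 1.12 ± 0.12 (adjusted p = 4.74e-05), and the COBRA-like genes BCL1 and BC1L2 by 1.31 and 1.40. EXPB2 stayed 1.86 higher under alkali. CESA3, a cellulose synthase of primary walls, fell by 0.54 ± 0.08 (adjusted p = 0.000753). LAC24, a laccase gene, read 7.61, 6.77 and 9.86 against 5.07, 6.37 and 5.57 (-2.41 ± 0.58, adjusted p = 0.0156). Its difference was -1.52 without Jijing88 replicate 3 and -3.07 without Jijing88 replicate 2. It lost its call without K83 replicate 1 (-2.11, adjusted p = 0.0608) or K83 replicate 3 (-2.36, adjusted p = 0.0501). The falls on the list numbered 3 without K83 replicate 3.

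Hormone response lists other than these were near the shares of all genes or short. Cytokinin genes had 4 called higher and 2 lower of 29 (13.8% and 6.9%, beside 11.3% and 9.58% of all genes). LOGL3, a cytokinin-activating enzyme gene, read 6.45, 6.98 and 6.34 in Jijing88 and 8.59, 8.44 and 8.98 in K83 (2.08 ± 0.19, limma adjusted p = 1.12e-05). RR5, a type A response regulator, rose by 0.93 ± 0.12 from close to background, and ORR4 fell by 0.49. LOGL3 was separate between the genotypes and 1.92 higher under alkali. The cytokinin falls numbered 1 without Jijing88 replicate 1, Jijing88 replicate 3, K83 replicate 1 or K83 replicate 3.

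Auxin genes had 5 called higher and 6 lower of 66 (7.58% and 9.09%, under the 11.3% and 9.58% of all genes). Among them were PIN3A, an efflux carrier, at 0.91, IAA20, close to background in Jijing88, at 0.71 and ARF16, an auxin response factor, at -0.92. The auxin genes called lower numbered 2 without K83 replicate 2 and 3 without Jijing88 replicate 2 or 3, and those called higher numbered 3 without Jijing88 replicate 1, K83 replicate 1 or K83 replicate 2. Gibberellin genes had 1 called higher and 2 lower of 14 (7.14% and 14.3%, beside 11.3% and 9.58% of all genes). The receptor gene gid1 fell by 0.48 and GA20OX2, the Green Revolution gene, by 0.56, while CYP701A6 rose by 0.55. The GA20OX2 call was lost without Jijing88 replicate 1 (-0.43, limma adjusted p = 0.0907), K83 replicate 2 (-0.51, adjusted p = 0.0812) or K83 replicate 3 (-0.45, adjusted p = 0.0894). That of CYP701A6 was lost without Jijing88 replicate 3 (0.41, adjusted p = 0.0825), K83 replicate 1 (0.51, adjusted p = 0.0646) or K83 replicate 3 (0.52, adjusted p = 0.0686).

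ACO1, the last enzyme of ethylene synthesis, was the 1 gene called of 11 ethylene genes (-0.64 ± 0.10, limma adjusted p = 0.00087). That is 9.09% called lower, beside 9.58% of all genes. Of 25 aquaporin genes, 2 were called higher and 2 lower (8.0% each, under the 11.3% and 9.58% of all genes). OsTIP4;2 and OsTIP4;1 of the vacuolar membrane fell by 1.48 and 0.59, and OsSIP1;1 and OsPIP2;2 rose by 0.36 and 0.44. The aquaporin rises numbered 0 without K83 replicate 2 and 1 without Jijing88 replicate 3, K83 replicate 1 or K83 replicate 3, and OsSIP1;1 then had 0.33 (adjusted p = 0.0556) without K83 replicate 2. Of 26 NAC, WRKY and AP2/ERF factors, NAC2 and WRKY62 were called lower (-0.73 and -0.98), which is 7.69%, under the 9.58% of all genes. WRKY62 was close to background in K83 and lost its call without Jijing88 replicate 3 (-0.72, adjusted p = 0.0964), K83 replicate 1 (-0.87, adjusted p = 0.0782) or K83 replicate 2 (-1.01, adjusted p = 0.0575). The chalcone isomerase gene Cfi was called lower of 2 anthocyanin and flavonoid genes (-0.43), 50% of this short list beside 9.58% of all genes. None of 24 cytosolic ribosomal protein genes was called by limma in the fit reported here, beside 20.9% of all genes. Their median was 0.08, beside 0.04 over all genes, and 22 of the 24 had a positive difference. At an unadjusted p under 0.05 there were 2. RPL30 had the smallest p among them (0.21, adjusted p = 0.0935), and 1 such gene was called with dim probe sets left out or with trend and robust moderation.

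Single genes outside these lists completed the largest differences. BURP16, a BURP domain gene on chromosome 10, read 11.33, 11.16 and 11.08 in Jijing88 and 6.51, 7.06 and 7.01 in K83 (-4.33 ± 0.21, limma adjusted p = 1.23e-08), 20.1-fold lower and again -5.05 under alkali. PSK2, a phytosulfokine precursor, read 9.13, 8.75 and 9.01 against 6.99, 7.22 and 7.01 (-1.89 ± 0.15, adjusted p = 1.98e-06). OsbZIP08, close to background in K83, fell by 2.13, and RGLP1, a germin-like protein gene, by 1.87. Each of these was separate between the genotypes and called lower in K83 under alkali. METK3, an S-adenosylmethionine synthetase gene, read 5.66, 6.20 and 5.98 against 8.09, 8.09 and 8.30 (2.22 ± 0.12, adjusted p = 4.88e-08). NIGT1, a nitrate-induced repressor, ABCG48, a membrane transporter, and GER3, a germin-like protein gene, rose by 1.80, 1.60 and 1.60. CIPK14, a calcineurin B-like interacting kinase, read 9.67, 9.67 and 8.79 against 10.40, 10.89 and 11.57 (1.58 ± 0.27, adjusted p = 0.00159). Its difference under alkali was -0.15 and not called, and its change between media was not called either (limma adjusted p = 0.0625).

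Among genes known only by locus number, LOC4350688 differed more than NAS1, and others came close to it. LOC4350688 on chromosome 11 read 11.11, 11.08 and 11.10 in Jijing88 and 3.75, 4.28 and 3.81 in K83 (-7.15 ± 0.12, limma adjusted p = 2.06e-13). LOC4352036 on chromosome 12 read 10.77, 10.78 and 10.69 against 4.09, 3.91 and 3.90 (-6.79 ± 0.09, adjusted p = 3.38e-14). LOC4350802 on chromosome 11 went the other way, with 4.05, 4.50 and 4.15 against 10.91, 10.61 and 10.77 (6.53 ± 0.15, adjusted p = 5.37e-12). The lower genotype was close to background in each, so these differences are lower bounds. LOC4350802 has another probe set at 6.44 and one not called at -0.52 with both genotypes close to background. LOC4349188 on chromosome 10 fell by 6.40 ± 0.23, with K83 close to background, while a second probe set of it rose by 1.5 (adjusted p = 0.00416).

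Such all-or-none signals were counted over all probe sets. A total of 45 probe sets had all 3 K83 arrays below the array medians and at least 3 log2 units under every Jijing88 array, and 44 of the 45 were called the same way under alkali. The converse held for 16 probe sets, all 16 called the same way under alkali. Only 19 of the 45 and 5 of the 16 were annotated to 1 gene. Among the 672 genes at least 2-fold apart, 103 had further probe sets, 136 in all, of which 120 had the same sign as the probe set used and 79 were called the same way.

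Genes that neighbour each other sometimes shared a direction. Called genes at least 2-fold apart in 1 direction, with no other measured gene between them, formed 24 runs of 2 genes, 2 runs of 3 and 1 run of 4. The run of 4 lay on chromosome 5, where LOC4339508, LOC4339507, LOC4339506 and LOC4339505 are consecutive RefSeq genes. LOC4339507 read 9.92, 10.22 and 9.93 in Jijing88 and 3.70, 4.03 and 3.85 in K83 (-6.16 ± 0.13, limma adjusted p = 2.8e-12). LOC4339505 read 9.63, 9.82 and 9.75 against 3.92, 3.93 and 3.49 (-5.95 ± 0.13, adjusted p = 4.52e-12). LOC4339508 and LOC4339506 fell by 4.51 and 4.37. K83 was close to background in all 4 genes, and under alkali the differences were -5.96 to -4.18. The measured neighbour on one side, LOC4339509, read 11.55, 11.62 and 11.56 against 11.48, 11.42 and 11.39 and was not called (-0.14), and that on the other, LOC4339504, was close to background in both genotypes. Farther along, LOC4339492, LOC9268208 and LOC4339501, the last with K83 close to background, had differences of -1.95, -1.73 and -1.64, while LOC4339516 rose by 1.67.

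**Figure D4:**
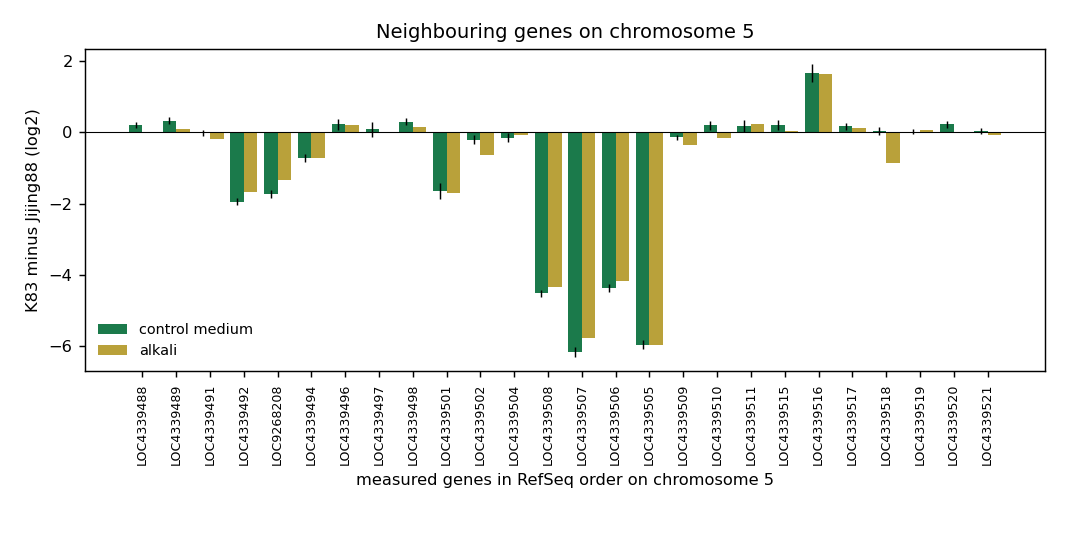
K83 minus Jijing88 difference in log2 units for 26 measured genes in their RefSeq order on chromosome 5, with green bars for control medium, standard errors as black lines on them, and yellow bars for alkali. The 4 consecutive genes LOC4339508 to LOC4339505 stand between -4.37 and -6.16 in control medium, with neighbours at -0.15 and -0.14.

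Some probe sets differed among arrays of 1 genotype. They were picked after values were seen, by a signal over 8 with an SD under 0.4 in all 6 arrays of one genotype, and by 6 arrays of the other genotype that lay at least 1 unit lower, spread over more than 2 units and reached under 6. They are therefore described with no further test of the gap. The rule fixed the direction of the gap, so limma p-values given below for these probe sets add no support for it. In 12 probe sets K83 was high and even, with means of 8.77 to 12 over its 6 arrays, while the Jijing88 arrays were split. Their median signal was 4.36 and 4.92 in Jijing88 control replicates 1 and 3, 6.98 in control replicate 2, and 7.26, 7.42 and 7.34 in the Jijing88 alkali arrays. LOC9269151 on chromosome 5 read 4.29, 8.09 and 4.05 in the Jijing88 control arrays, 7.36, 7.86 and 8.07 in the Jijing88 alkali arrays and 11.48 to 11.73 in K83. On the linear scale the Jijing88 control arrays held 0.634%, 8.82% and 0.537% of the K83 mean of that gene. Replicates 1 and 3 lay below the array medians, so their percentages are upper bounds. LOC4337003 on chromosome 4 showed the same arrangement, with 4.34, 7.95 and 4.57 in the Jijing88 control arrays and 7.54, 8.46 and 8.11 under alkali.

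These probe sets include the largest rises after LOC4350802. LOC9269151 differed by 6.14 ± 0.74 (limma adjusted p = 0.0001) and LOC4337003 by 5.82 ± 0.67 (adjusted p = 6.81e-05). Without Jijing88 control replicate 2 they were 7.45 and 6.98, without replicate 1 they were 5.55 and 5.17, and LOC9269151 was 5.43 without replicate 3. In both genes Jijing88 control replicates 1 and 3 lay below the array medians, so background limits these sizes. The arrangement did not hold in 4 of the 12 probe sets. LOC4340976 read 4.65, 7.58 and 7.66 in the Jijing88 control arrays, LOC4350023 read 7.85, 8.25 and 5.94, and an unnamed probe set read 4.84, 7.28 and 7.54. Another unnamed probe set read 3.58, 3.64 and 7.87 there and 3.37 to 3.61 in the Jijing88 alkali arrays, so that control replicate 3 was its 1 high array. For LOC4337027 the probe set with the highest signal gave -0.53 and the uneven one 5.50, and the mean of both was 2.49.

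A converse group held 4 probe sets, 3 of them annotated to LOC4346790, LOC4346832 and LOC4346837 on chromosome 9. Jijing88 was high and even there, and K83 had median signals of 8.12, 8.30 and 7.94 in the control arrays and 8.38, 4.79 and 7.50 under alkali. LOC4346837 read 10.97, 10.49 and 10.65 in Jijing88 and 7.66, 7.49 and 7.38 in K83 control arrays (-3.20 ± 0.40, limma adjusted p = 0.000151). K83 alkali replicate 2 was the low array, and it enters the control-medium test through the shared spread. The LOC4346790 difference of -2.74 (adjusted p = 0.0487) lost its call without any 1 of the 6 control-medium arrays, any 1 Jijing88 alkali array or K83 alkali replicate 3, with adjusted p of 0.0521 to 0.125. It kept the call without K83 alkali replicate 1 or 2. What sets these arrays apart was not tested.

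**Figure D5:**
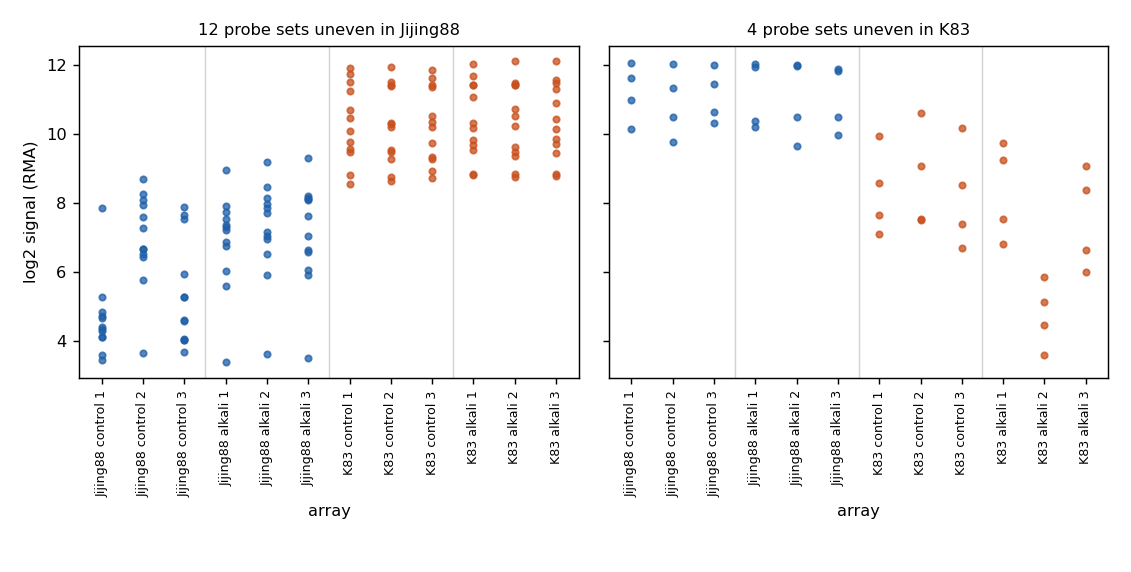
Log2 signal of the uneven probe sets in each of the 12 arrays, 12 probe sets with split Jijing88 arrays on the left and 4 with split K83 arrays on the right, Jijing88 in blue and K83 in orange. On the left the Jijing88 control replicates 1 and 3 have the lowest medians, 4.36 and 4.92, and on the right K83 alkali replicate 2 has the lowest, 4.79.

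Genes whose difference changed sign between media were few. Of 3747 called genes, 96 also had a called change between media, which was called for 1.03% of all genes. The change subtracts the control-medium difference that picked these genes, so the picking itself favours a higher share. In opposite directions in the 2 media, 30 genes were called, 24 of them higher in K83 in control medium and lower under alkali. LOC4333882 on chromosome 3 read 8.72, 9.01 and 9.0 in Jijing88 and 9.47, 9.55 and 9.91 in K83 in control medium, and 9.72, 10.04 and 9.88 against 8.92, 8.94 and 8.94 under alkali. Its differences were 0.73 and -0.95, a change of -1.68 ± 0.17 (limma adjusted p = 0.00139). GH3-8, which conjugates auxin to amino acids, was lower in control medium (-0.56) and higher under alkali (0.62). Its control-medium call was lost without Jijing88 replicate 1, 2 or 3 (adjusted p = 0.109, 0.0597 and 0.118) and without K83 replicate 1 or 2 (adjusted p = 0.145 and 0.0843), Jijing88 alkali replicate 3 (0.0537) or K83 alkali replicate 1 (0.0523). LOC4351985 on chromosome 12 kept its sign, at -5.52 ± 0.40 with K83 close to background in control medium (adjusted p = 9.26e-07) and -1.14 under alkali, where it was not called. Without Jijing88 replicate 3 its control-medium difference was -4.93.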

How the data were processed

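Shoot RNA of 12 rice samples was measured on Affymetrix arrays, 3 per group of genotype and medium. The authors deposited log2 values, 1 per probe set and array, and the submitters' processing notes list RMA and limma, without versions or roles. The log base was read from the values. Nothing further was normalized. The 123 control probe sets were left out of 57381. Arrays give no read depth, and 3 arrays per group limit the precision.

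Differences were tested with limma 3.58.1 in R 4.3.3, by fitting 1 mean for each of 4 groups over all 12 arrays (8 residual and 5 prior degrees of freedom). P-values are two-sided and adjusted by the Benjamini-Hochberg method over 57258 probe sets. Probe sets were named through the GEO platform annotation (22436 with 1 gene, 95 with several, 34727 with none), and genes through RefSeq assembly ASM3414082v1, which gave a name beyond a locus number to 2426 of 17905 genes. The arrays' build is not given in the sources used here, so coordinates are left out.

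The 31 gene lists and the comparison itself were chosen with earlier results of these data known. Named were the 15 largest rises and falls among genes with a name whose groups did not overlap, up to 3 called members of each list by smallest p, and up to 3 locus-number genes per direction. Named after their values were seen were further members of a list, the MCM, diterpenoid, chromosome 5 and chromosome 9 genes, the uneven probe sets, CIPK14, CIPK23, MT-1-4b, and the genes whose difference changed between media. The method was tested on simulated data with independent noise for each probe set. That test cannot speak to deviations shared by the probe sets of an array. Alternatives changed the arrays, the moderation, the filter, the scaling and the probe set used, and left out each array in turn. Replicate numbers were shared by the groups, and the labels do not say whether they pair the samples. Deviations from the group means correlated at 0.16, 0.05 and 0.22 between same-numbered control arrays. The main fit did not pair the samples. With a replicate block, 6873 probe sets were called in control medium, against 6658 in the main fit. The part of a shared replicate effect in the results was not tested further.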

Additional observations from a re-analysis of the deposited data

Results flagged for a closer look

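The K83 minus Jijing88 difference was tested for a change between media in every named gene, and 11 named genes called in control medium had a called change (alkali minus control, limma adjusted p under 0.05). The change moved the difference upward in Nramp1 (2.98), IRT2 (2.45), GH3-8 (1.18) and LOC4351985 (4.38), all lower in K83 in control medium. It moved the difference downward in SPX3 (-1.27), CCA1 (-1.77), PORA (-1.69), CHLH (-1.34), ASMT3 (-0.99), OsTrx03 (-0.93) and LOC4333882 (-1.68), all higher in K83 in control medium. The genes were picked by a control-medium difference that the change subtracts. Moves against the control-medium sign are thus favoured by the picking, and their shared direction is not a separate result. None of the 11 changes is given here with an array left out, and the count of such calls over probe sets depended on single arrays. In GH3-8, PORA, ASMT3, OsTrx03 and LOC4333882 the difference was called with opposite signs in the 2 media. ASMT3, a relative of the melatonin synthesis gene ASMT1, was close to background in both genotypes in control medium, and its control-medium difference of 0.47 (adjusted p = 0.0388) was not called with control replicate 1 or 2 of Jijing88 or any 1 K83 control array left out, nor without Jijing88 alkali replicate 3 or K83 alkali replicate 1 or 3 (adjusted p = 0.0511 to 0.147).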

How the results depend on the processing

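Arrays have no depth, and differences from a group mean near the array medians are limited by background. The 6658 probe sets called in control medium numbered 5314 with control arrays only, 6873 with the replicate block, 6978 with median centring, 6561 with quantile normalization, 7459 with dim probe sets left out, 7155 with trend and robust moderation, and 4551 to 6764 with each array left out in turn. Median centring raised the share called higher in K83 from 53.2% to 61.3% and the median difference from 0.010 to 0.043. The 203 whose difference changed between media became 332 with dim probe sets left out and 316 with trend and robust moderation, and ran from 66 without K83 alkali replicate 3 to 248 without Jijing88 control replicate 3. Of 137 named genes, 127 were called, and 104 of these kept direction and call under every alternative. With control arrays only, IRT1, LAC24, GRXC1, JAZ7, HSF10, GA20OX2, GST-II, GSTU6, ASMT3 and OsYAB5 lost their calls, and with trend and robust moderation IRT1, LAC24, GRXC1, DTS2, MT-1-4b and LOC4346790 did. GH3-8 lost its call with median centring (adjusted p = 0.0588), LOC4346790 and OsYAB5 with quantile normalization (0.0508 and 0.0698), OsYAB5 with the replicate block (0.0564), and GBSS1 and gid1 with the mean of all their probe sets. CPS2 was called with the replicate block (2.08, adjusted p = 0.0383), which changed no named call but those of OsYAB5 and CPS2. LOC4337027 reversed to 2.49 with the mean of its probe sets.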

Other observations

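Called genes were spread over all 12 chromosomes. The share called ran from 17.7% of 1373 genes on chromosome 7 to 24.3% of 846 genes on chromosome 11. The share called at least 2-fold ran from 2.64% of 2125 genes on chromosome 2 to 6.38% of 846 on chromosome 11 and 5.84% of 908 on chromosome 12. Runs of 3 neighbouring genes at least 2-fold apart were LOC9269449, LOC4338430 and LOC4338442 on chromosome 5, lower in K83, and LOC4350125, LOC4350129 and LOC4350133 on chromosome 11, higher in K83. Of the 1269 probe sets at least 2-fold apart, 483 (38.1%) were annotated to no gene or to several.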
